A study of Mus musculus with 34 samples.

Results

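Signal transducers and activators of transcription (STATs) carry signals from cytokine receptors to the nucleus. A cytokine brings its receptor chains together, the Janus kinases (JAKs) bound to them phosphorylate the receptor and the STAT, and paired STATs enter the nucleus and bind DNA. In blood-forming cells, STAT2 acts in the response to type I IFN, STAT3 acts downstream of IL-6 and G-CSF, STAT5A and STAT5B act downstream of erythropoietin, IL-3 and GM-CSF, and STAT6 acts downstream of IL-4 and IL-13. RNA-seq reports the amount of STAT mRNA and not the phosphorylation by which the proteins are switched on.

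The 5 STAT genes described here are *Stat2*, *Stat3*, *Stat5a*, *Stat5b* and *Stat6*. They were chosen by name among the 13108 gene rows of the count table, and all 5 passed the filter on low counts in every comparison. Their levels were measured in hematopoietic stem cells (HSCs) sorted as LSK CD48-CD150+, in libraries of 100 cells prepared with SMART-Seq2, which copies and amplifies whole transcripts of few cells and does not mark strand. *Ythdf2* CKO mice (labelled KO) carry *Ythdf2* fl/fl and *Vav-iCre*, which deletes the floxed exon in hematopoietic cells, and *Ythdf2* CTL mice (labelled WT) are *Ythdf2* fl/fl without Cre. Both genotypes are on C57BL/6 and carry the fl allele, in which GFP follows the start codon of *Ythdf2*, so the controls express a GFP-YTHDF2 fusion. YTHDF2 is a reader of m6A that promotes the decay of methylated mRNA. There were 4 young CTL and 4 young CKO mice (8 to 12 wk), and 4 aged CTL and 5 aged CKO mice (1 yr). Each mouse gave 2 libraries, A and B, whose counts were added.

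Total counts were between 1859784 and 7784627 in the 33 libraries used and between 2218618 and 10125624 per mouse. Library B of aged CTL mouse 99 held 187034 counts and was left out, so that this mouse, the shallowest, rests on 1 library. RNA of HSC markers was found: the 9 HSC markers summed to between 1276 and 2617 CPM (counts scaled by TMM to a common library size, per 1e6 counts) in every mouse, with none at 0 in a whole group, and the B cell markers to at most 1.24 CPM. Megakaryocyte and platelet markers reached a sum of 3147 CPM, and granulocyte and monocyte markers 905 CPM. These lists and *Cd48* are described below. *Ythdf2* was 108 ± 14.9 CPM (SD, n = 4) in young CTL and 55.9 ± 4.2 CPM (SD, n = 4) in young CKO mice, a log2 fold change of -0.95 (adjusted p = 0.0406, edgeR quasi-likelihood test). In aged mice it went against the label in 2 mice: the mouse labelled KO 121 had 188 CPM, above all 4 mice labelled WT, and the mouse labelled WT 124 had 70.5 CPM, below all 5 labelled KO. Every aged comparison therefore compares the mice as labelled, and the members' values without these mice are given with each. Y-linked genes together exceeded 10 CPM in 3 of 4 young CTL, 1 of 4 young CKO, 1 of 4 aged CTL and 1 of 5 aged CKO mice, so sex was not balanced over the groups. Aged CTL mouse 114, below that level, had 1 Y-linked count. Library names of young mice carry a running number that those of aged mice lack. No label names a batch, so a batch that differs between ages could not be told apart from age.

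Where each gene lies decides how its reads can be counted. *Stat2* lies on chromosome 10 from 128270559 to 128292849 (plus strand) and *Stat6* on the same chromosome from 127642986 to 127660957 (plus strand), in GRCm38 with GENCODE M21 gene models. The other three stand side by side on chromosome 11: *Stat5b* from 100780731 to 100850724 (minus strand), *Stat5a* from 100859351 to 100885169 (plus strand) and *Stat3* from 100885098 to 100939540 (minus strand), together 158810 bases. The 3' ends of *Stat5a* and *Stat3* overlap by 72 bases, chr11:100885098-100885169, and *Stat6* overlaps its antisense neighbour *Nab2* by 40 bases, chr10:127660918-127660957. Without strand, reads within these overlaps cannot be assigned to 1 gene, but they are short beside the exons, which cover between 4402 bases (*Stat6*) and 9527 bases (*Stat3*).

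*Stat5a* and *Stat5b* are neighbouring copies of 1 ancestral gene, and their sequences are shown because the counting could split reads between them. Their coding sequences were 90.7% identical, and 26.09% of the windows of 50 bases in *Stat5a* (608 windows) also occurred in *Stat5b*. Every other pair of the 5 genes was between 57.05% and 65.06% identical and shared no such window. The longest identical stretch was 324 coding bases long. Its first 150 bases, coding positions 571 to 720 of both genes, run over exons 7 to 8 of *Stat5a* (chr11:100874023-100874377, plus strand, intron included) and exons 6 to 7 of *Stat5b* (chr11:100798347-100798701, minus strand, intron included), and a read within them fits both genes equally.
Stat5a and Stat5b: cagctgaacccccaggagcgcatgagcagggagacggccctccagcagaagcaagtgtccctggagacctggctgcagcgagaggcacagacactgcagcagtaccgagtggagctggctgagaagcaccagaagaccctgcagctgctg

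The similarity of the pair extends to a start site. RefSeq (GRCm38.p6) lists 2 start sites for *Stat5a* and 2 for *Stat5b*, and 1 pair of their windows, from 250 bases before to 50 bases after the start, shared a stretch of 65 bases, of which 58 were identical (89.2%). It ended just before the start site of *Stat5a* (chr11:100860418-100860482, plus strand) and just after that of *Stat5b* (chr11:100822563-100822627, minus strand). Capitals mark the identical bases.
Stat5a: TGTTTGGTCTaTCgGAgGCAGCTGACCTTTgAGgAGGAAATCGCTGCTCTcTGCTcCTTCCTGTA
Stat5b: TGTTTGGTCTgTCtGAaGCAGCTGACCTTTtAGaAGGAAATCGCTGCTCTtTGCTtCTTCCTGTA

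The following elements were searched on both strands of the 7 start-site windows of the 5 genes: the STAT element with 3 free bases, TTCNNNGAA, the form with 4 free bases that STAT6 is known for, TTCNNNNGAA, and the IFN element GAAANNGAA, to which the complex of STAT2 is known to bind. Of 32851 RefSeq windows of this length, 8.3%, 6.95% and 8.56% held them. Among the STAT genes the window of *Stat2* (chr10:128270248-128270547, plus strand) was the only one with a match. It held the IFN element on the opposite strand at position -221 (128270277 to 128270285) and the 4-base form at position -210 (128270288 to 128270297), both in capitals.
Stat2: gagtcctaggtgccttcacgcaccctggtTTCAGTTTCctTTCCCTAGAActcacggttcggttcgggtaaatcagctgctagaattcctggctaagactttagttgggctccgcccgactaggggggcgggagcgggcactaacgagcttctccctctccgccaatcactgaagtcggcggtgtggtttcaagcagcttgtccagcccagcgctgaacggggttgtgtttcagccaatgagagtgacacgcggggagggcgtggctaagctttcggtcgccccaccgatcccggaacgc
A match is a description of the sequence and does not show that a factor binds there.

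Between young and aged HSCs 4 of the 5 genes passed the test in each genotype, while no member passed it between genotypes at either age. All values per mouse below are CPM.

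**Figure D1:**
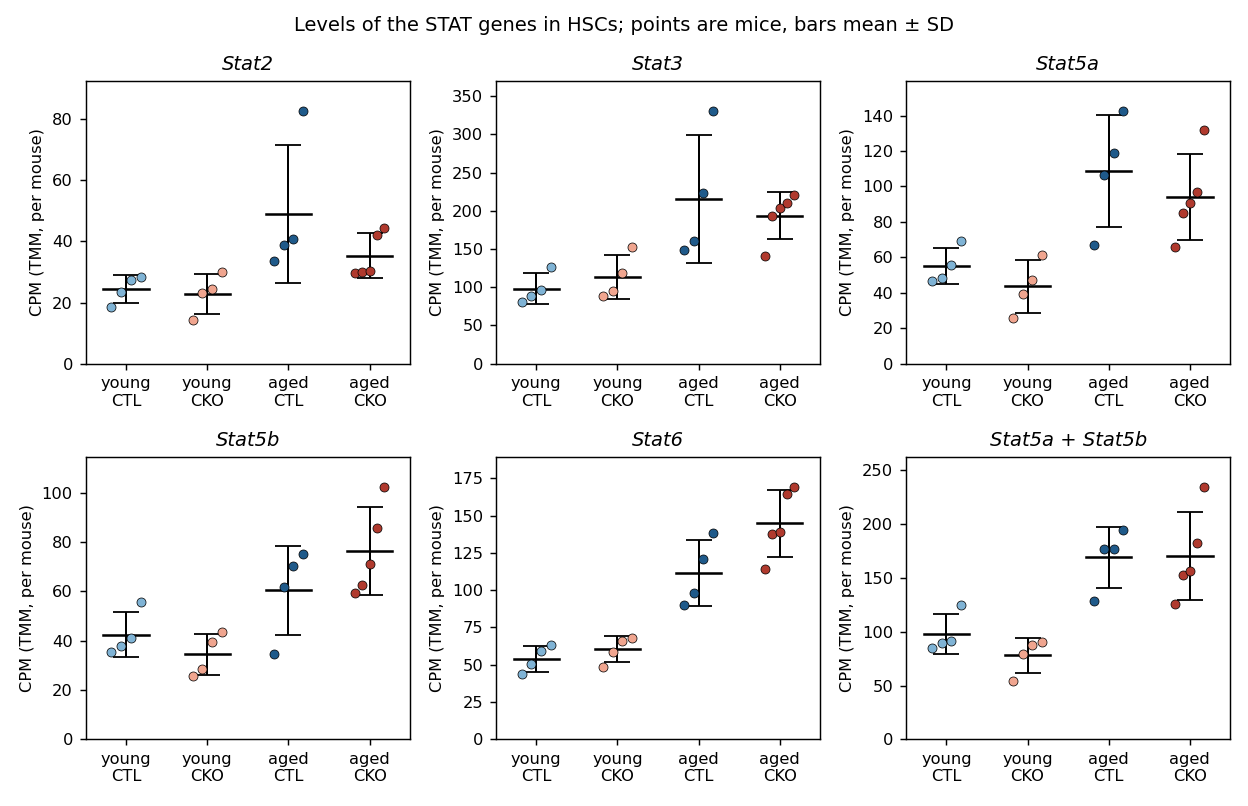
Level of each STAT gene, and of *Stat5a* and *Stat5b* added, in CPM (TMM-scaled, linear axis from 0) in each mouse of the 4 groups. Points are mice, the wide bar is the mean and the whiskers are the SD. The aged groups lie above the young groups for *Stat6* without overlap in either genotype, and aged CTL mouse 99 stands alone at 82.5 CPM of *Stat2*.

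*Stat6*, the STAT of IL-4 and IL-13 signaling, gave the clearest separation. Young CTL mice 1 to 4 had 59.2, 63.1, 43.8 and 50.2 CPM and young CKO mice 1 to 4 had 48.7, 65.8, 68.1 and 58.9 CPM. Aged CTL mice 65, 99, 114 and 124 had 121, 138, 97.8 and 89.8 CPM, and aged CKO mice 78, 81, 94, 121 and 122 had 137, 114, 169, 139 and 165 CPM. Every aged mouse lay above every young mouse, including both mice whose *Ythdf2* went against the label. *Stat6* rose with age by a log2 fold change of 1.04 in CTL mice (standard error 0.19, adjusted p = 0.00205, edgeR quasi-likelihood test) and of 1.26 in CKO mice (standard error 0.19, adjusted p = 0.000213, same test), which is 2.06-fold and 2.4-fold.

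*Stat3*, the STAT of IL-6 and G-CSF signaling, was the most abundant of the 5 by counts. It had 127, 96.0, 80.7 and 88.8 CPM in young CTL mice 1 to 4 and 119, 87.9, 95.1 and 152 CPM in young CKO mice 1 to 4. Aged CTL mice 65, 99, 114 and 124 had 148, 330, 160 and 223 CPM, and aged CKO mice 78, 81, 94, 121 and 122 had 194, 141, 204, 210 and 221 CPM. The CTL groups did not overlap, and in CKO mice the highest young mouse (152 CPM) lay above the lowest aged mouse (141 CPM). *Stat3* rose by a log2 fold change of 1.13 in CTL mice (standard error 0.24, adjusted p = 0.0045, edgeR quasi-likelihood test) and of 0.77 in CKO mice (standard error 0.23, adjusted p = 0.0239, same test). The call in CKO mice was lost when young CKO mouse 2 (adjusted p = 0.0935), young CKO mouse 3 (0.0886) or aged CKO mouse 122 (0.0562) was left out, in the same edgeR test, with log2 fold changes from 0.67 to 0.71.

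*Stat5a* was 48.6, 69.2, 46.8 and 55.8 CPM in young CTL mice 1 to 4 and 47.3, 26.0, 39.6 and 61.5 CPM in young CKO mice 1 to 4. It was 66.8, 119, 106 and 142 CPM in aged CTL mice 65, 99, 114 and 124, and 90.6, 66.0, 96.9, 132 and 84.9 CPM in aged CKO mice 78, 81, 94, 121 and 122. Aged CTL mouse 65 lay within the young range, whereas no aged CKO mouse lay within that of young CKO mice. *Stat5a* rose by a log2 fold change of 0.98 in CTL mice (standard error 0.27, adjusted p = 0.019, edgeR quasi-likelihood test) and of 1.11 in CKO mice (standard error 0.26, adjusted p = 0.00619, same test). In CTL mice the call was lost without young CTL mouse 1, 3 or 4 (adjusted p between 0.0531 and 0.0631 in the same edgeR test).

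*Stat5b*, the copy known for signaling downstream of growth hormone, was 40.9, 55.8, 37.8 and 35.3 CPM in young CTL mice 1 to 4 and 43.5, 28.7, 39.6 and 25.8 CPM in young CKO mice 1 to 4. It was 61.7, 75.1, 70.4 and 34.6 CPM in aged CTL mice 65, 99, 114 and 124, and 62.5, 59.5, 85.8, 102 and 71.0 CPM in aged CKO mice 78, 81, 94, 121 and 122. The mouse labelled WT 124 had the lowest *Stat5b* of all CTL mice, young ones included, while the other three aged CTL mice lay above every young mouse. In CKO mice the ages did not overlap. *Stat5b* rose by a log2 fold change of 1.15 in CKO mice (standard error 0.25, adjusted p = 0.00456, edgeR quasi-likelihood test) and did not pass in CTL mice (log2 fold change 0.51, standard error 0.26, adjusted p = 0.204). Without the mice labelled KO 121 and WT 124, *Stat5b* passed in CTL mice too, with a log2 fold change of 0.70 (adjusted p = 0.0424, same edgeR test). It passed there in 0 of the 17 fits that left out 1 mouse, with log2 fold changes from 0.38 to 0.68 (adjusted p between 0.0575 and 0.401, same edgeR test).

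*Stat2*, which acts in the type I IFN response, was the least abundant by counts. It was 27.3, 18.4, 23.5 and 28.4 CPM in young CTL mice 1 to 4 and 24.3, 30.0, 14.2 and 23.1 CPM in young CKO mice 1 to 4. It was 38.7, 82.5, 40.8 and 33.5 CPM in aged CTL mice 65, 99, 114 and 124, and 30.4, 30.1, 44.4, 42.1 and 29.7 CPM in aged CKO mice 78, 81, 94, 121 and 122. The CTL groups did not overlap, and in CKO mice the highest young mouse (30.0 CPM) lay above the lowest aged mouse (29.7 CPM). *Stat2* passed in CTL mice (log2 fold change 0.99, standard error 0.31, adjusted p = 0.0356, edgeR quasi-likelihood test) and not in CKO mice (0.62, standard error 0.29, adjusted p = 0.156). The call in CTL mice was lost without aged CTL mouse 99, at a log2 fold change of 0.62 (adjusted p = 0.17, same edgeR test), and without young CTL mouse 1, 2, 3 or 4, with log2 fold changes from 0.87 to 1.07 (adjusted p between 0.0623 and 0.0932).

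Thus 4 of 5 members were called higher with age in CTL mice, where 6.7% of the 12352 genes tested were called higher, and 4 of 5 in CKO mice, where 7.21% were. By levels alone, all aged mice lay above all young mice for *Stat2*, *Stat3* and *Stat6* in CTL mice, against 7.11% of all genes, and for *Stat5a*, *Stat5b* and *Stat6* in CKO mice, against 9.07%. The median log2 fold change of all genes was 0.11 in CTL and 0.07 in CKO mice. Without the mice labelled KO 121 and WT 124 the 8 calls were kept, with log2 fold changes of 1.13 (*Stat2*), 1.11 (*Stat3*), 0.81 (*Stat5a*) and 1.13 (*Stat6*) in CTL mice and of 0.74 (*Stat3*), 0.95 (*Stat5a*), 1.02 (*Stat5b*) and 1.28 (*Stat6*) in CKO mice, where *Stat2* had 0.55. *Stat6* kept its call in each of the 17 fits that left out 1 mouse, in both genotypes, and so did *Stat3* in CTL mice and *Stat5a* and *Stat5b* in CKO mice. Each of the 8 calls was kept when the summed level of Y-linked genes entered the fit. The RNA of *Cd48*, whose protein the sort excludes, also moved with age, from between 53.9 and 106 CPM over the young mice to between 0.629 and 28.2 CPM over the aged mice. Its part in the STAT values was not tested. In samples of whole cells, more cells with a transcript and more transcript per cell cannot be told apart.

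**Figure D2:**
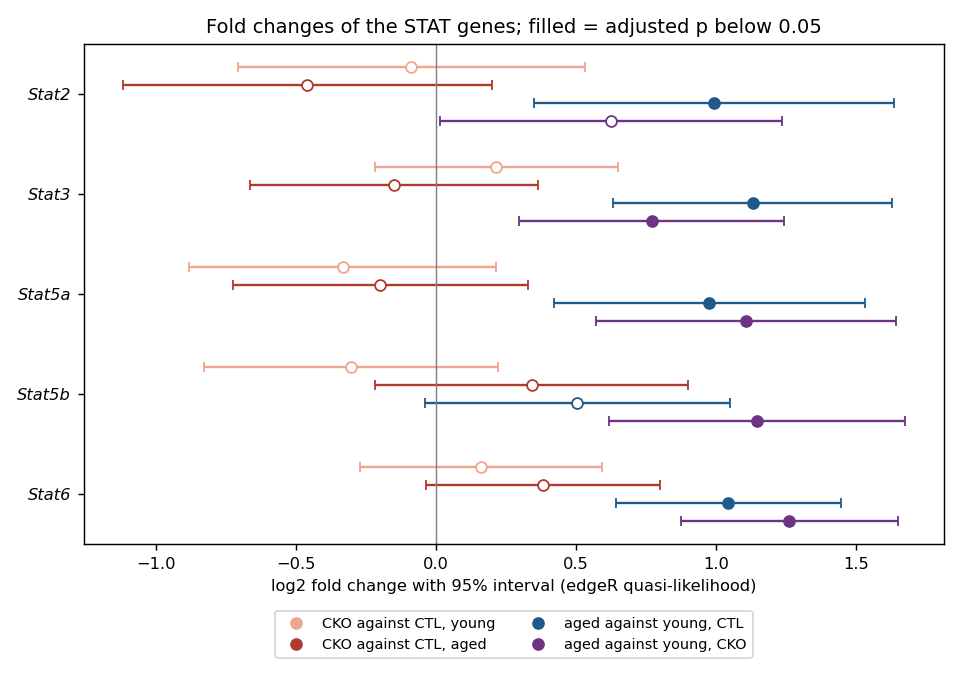
Log2 fold change (horizontal axis) with its 95% interval for each STAT gene in 4 comparisons, from edgeR's quasi-likelihood test over mice. Filled points passed at 0.05 after adjustment over all genes. The 10 estimates for age are above 0, from 0.51 to 1.26, and the 10 intervals for genotype include 0.

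The comparison of genotypes asked whether loss of YTHDF2 goes with a change in STAT mRNA. In young HSCs 20 of 11526 genes, 0.174%, were called in either direction, and none of the 5 members was. The means in young CTL and CKO mice were 24.4 ± 4.49 and 22.9 ± 6.55 CPM for *Stat2* (SD, n = 4 each), 98.2 ± 20.3 and 113 ± 29.0 CPM for *Stat3*, 55.1 ± 10.2 and 43.6 ± 14.8 CPM for *Stat5a*, 42.4 ± 9.22 and 34.4 ± 8.48 CPM for *Stat5b*, and 54.1 ± 8.68 and 60.4 ± 8.74 CPM for *Stat6*. The groups overlapped for each gene. The log2 fold changes were -0.09 for *Stat2* (95% interval -0.71 to 0.53), 0.22 for *Stat3* (-0.22 to 0.65), -0.33 for *Stat5a* (-0.88 to 0.22), -0.30 for *Stat5b* (-0.83 to 0.22) and 0.16 for *Stat6* (-0.27 to 0.59), with adjusted p between 0.893 and 0.982 in edgeR's quasi-likelihood test. The intervals reach a level 1.57 times that of the controls for *Stat3* and 0.543 times for *Stat5a*.

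In aged HSCs edgeR's quasi-likelihood test called 0 of 11961 genes, and 1208 genes had an unadjusted p below 0.05, while the likelihood ratio test over mice called 76 genes and DESeq2 112. None of these tests called a member. Aged CTL and CKO mice had 48.9 ± 22.6 and 35.3 ± 7.26 CPM of *Stat2* (SD, n = 4 and 5), 216 ± 83.2 and 194 ± 31.2 CPM of *Stat3*, 109 ± 31.6 and 94.1 ± 24.1 CPM of *Stat5a*, 60.5 ± 18.1 and 76.2 ± 17.8 CPM of *Stat5b*, and 112 ± 22.1 and 145 ± 22.4 CPM of *Stat6*. The smallest p belonged to *Stat6*, with a log2 fold change of 0.38 (95% interval -0.04 to 0.80, p = 0.0699, adjusted p = 0.526, edgeR quasi-likelihood test). *Stat2* had -0.46 (-1.12 to 0.20), *Stat3* -0.15 (-0.66 to 0.37), *Stat5a* -0.20 (-0.72 to 0.33) and *Stat5b* 0.34 (-0.22 to 0.90). The value of *Stat2* was -0.0958 without aged CTL mouse 99, the mouse with 1 library. Without the mice labelled KO 121 and WT 124 the log2 fold change of *Stat5b* was 0.0123, that of *Stat2* -0.68, of *Stat3* -0.17, of *Stat5a* -0.20 and of *Stat6* 0.30. None of the 5 was called there either (adjusted p between 0.428 and 0.99, edgeR), while 40 genes were.

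The term of genotype by age compares the genotype effect between ages, and equally the age effect between genotypes. It called 0 of 12352 genes in edgeR's quasi-likelihood test, with 588 genes at an unadjusted p below 0.05 and 4 calls by the likelihood ratio test, none of them a member. *Stat5b* had the smallest p of the 5, with a log2 difference of 0.64 (95% interval -0.11 to 1.39, p = 0.0901, adjusted p = 0.999, edgeR). Without the mice labelled KO 121 and WT 124 it was 0.32 (standard error 0.32), and the other four were -0.58 (*Stat2*), -0.37 (*Stat3*), 0.14 (*Stat5a*) and 0.14 (*Stat6*), again with none called. Over all mice the interval for *Stat2* was -1.24 to 0.51, for *Stat3* -1.04 to 0.32, for *Stat5a* -0.63 to 0.89 and for *Stat6* -0.33 to 0.76. *Stat5b* passed with age in CKO mice and *Stat2* in CTL mice, but this term did not call a difference between genotypes in the age effect of either gene (adjusted p = 0.999 for both, edgeR; unadjusted 0.0901 and 0.394).

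Both copies of *Stat5* were set against each other within each mouse, since their ratio needs no scaling between libraries. *Stat5a* counts exceeded *Stat5b* counts in 15 of the 17 mice. The ratio was between 1.19 and 1.58 in young CTL, 0.904 and 2.38 in young CKO, 1.08 and 4.11 in aged CTL and 1.11 and 1.45 in aged CKO mice. The value of 4.11 belonged to the mouse labelled WT 124, with 1016 *Stat5a* and 247 *Stat5b* counts. Its libraries differed too: A held 659 and 60 counts and B held 357 and 187. The mean log2 ratio was 0.38 ± 0.19 in young CTL and 0.31 ± 0.64 in young CKO mice (SD, n = 4 each, two-sided exact permutation test, p = 0.886), and 0.85 ± 0.83 in aged CTL and 0.30 ± 0.16 in aged CKO mice (n = 4 and 5, p = 0.175, exact permutation test). The aged difference in log2 ratio was -0.56, and -0.18 without the mice labelled KO 121 and WT 124 (exact permutation test, p = 0.457), -0.16 without WT 124 alone (p = 0.393, exact) and -0.80 without aged CTL mouse 65 (p = 0.0357, exact). Over the young and the aged test of all mice, the adjusted values were 0.886 and 0.349, and the smallest p the young test can give is 0.0286. How reads that fit both copies were counted is not stated. The sum of both copies, which does not change if such reads were split between them but is lowered if they were dropped, was 97.5 ± 18.6 and 78.0 ± 16.3 CPM in young CTL and CKO mice and 169 ± 28.2 and 170.3 ± 41.1 CPM in aged CTL and CKO mice (SD).

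**Figure D3:**
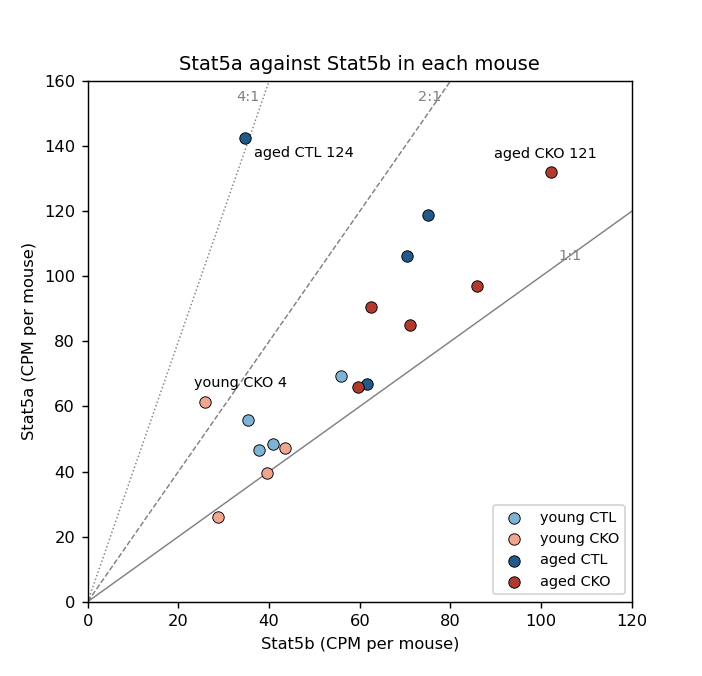
*Stat5a* against *Stat5b* in CPM, 1 point per mouse, both axes linear from 0, with lines at ratios of 1:1, 2:1 and 4:1. Most mice lie between the first 2 lines, young CKO mouse 4 lies at a ratio of 2.38 and aged CTL mouse 124 at 4.11.

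Between genes, levels can be compared only per length, and which transcripts the cells use is not known. In CPM per kb of the union of a gene's exons, *Stat6* had the highest mean in each group and *Stat2* the lowest: 12.3 and 4.12 in young CTL, 13.7 and 3.86 in young CKO, 25.4 and 8.25 in aged CTL, and 32.9 and 5.96 in aged CKO mice. *Stat3* came next in each group, with 10.3, 11.9, 22.6 and 20.3 CPM per kb. *Stat6* and *Stat3* overlapped in 3 groups, and in aged CKO mice *Stat6* stood above *Stat3* in each mouse without overlap. *Stat5a* and *Stat5b* overlapped in every group, with 7.72 and 7.66 in young CTL, 6.11 and 6.21 in young CKO, 15.2 and 10.9 in aged CTL, and 13.2 and 13.8 CPM per kb in aged CKO mice. The order of the other four depended on this length. Per kb of the longest coding transcript (from 3775 bases for *Stat6* to 6042 for *Stat3*), *Stat3* stood above *Stat6* in 3 groups, with 16.2 and 14.3 in young CTL, 18.8 and 16.0 in young CKO and 35.7 and 29.6 CPM per kb in aged CTL mice, and *Stat6* above *Stat3* in aged CKO mice (38.4 and 32.1), where they overlapped. *Stat5a* then stood above *Stat5b* in the mean of each group, with 14.2 and 8.14 in young CTL mice, and did not overlap it in either CTL group. *Stat2* had the lowest mean in each group by both lengths, and lay below the gene next above it without overlap in young CTL and in aged CKO mice.

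The spread between samples of 100 cells of 1 mouse was measured by its libraries. Over the 16 mice with 2 libraries, libraries A and B of a mouse differed by a median of 1.77-fold in *Stat2*, 1.43-fold in *Stat3*, 1.44-fold in *Stat5a*, 1.33-fold in *Stat5b* and 1.48-fold in *Stat6*. The widest gap was 9.18-fold, between the 15 and 87 *Stat2* counts of libraries A and B of young CTL mouse 2. *Stat2* was also the member with the fewest counts, from 15 to 224 per library, against 84 to 1017 for *Stat3*.

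The lists used here place the members in their pathway: 27 receptors and kinases, 19 inhibitors, and 44 genes known as targets of STAT2, STAT3, STAT5 or STAT6. Between genotypes edgeR's quasi-likelihood test called 0 of the 74 listed genes tested in young and 0 of the 76 tested in aged mice, and 18 and 17 had an unadjusted p below 0.05, as did 7.06% and 10.1% of all genes. The members and the lists were chosen by earlier knowledge of these pathways and of these data, so the counts describe the lists and are no independent support. A target is a gene known to respond to the STAT in some cells, not a gene shown to be bound here.

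The targets of STAT3 were the list with the most calls with age. Of the 11 targets listed for STAT3, 6 rose in CTL mice and 6 in CKO mice, against 6.7% and 7.21% of all genes, and the list's median log2 fold change was 1.22 and 1.24. When the mice labelled KO 121 and WT 124 were left out, 7 rose in CTL mice and 6 in CKO mice, where *Pim1* was no longer called, against 7.7% and 7.68% of all genes in that fit. *Socs3*, a feedback inhibitor of cytokine signaling, had a log2 fold change of 2.31 in CTL mice (adjusted p = 0.0372, edgeR) and went from 12.2 ± 3.27 to 71.1 ± 43.5 CPM in CKO mice (0.0148). *Cebpb*, a transcription factor of emergency granulopoiesis, went from 50.1 ± 7.62 to 132 ± 37.6 CPM and from 62.1 ± 14.8 to 122 ± 42.9 CPM (adjusted p = 0.00221 and 0.0105, edgeR). *Junb*, *Fos* and the kinase gene *Pim1* were also called in both genotypes, *Ccnd1* in CTL mice and *Il4ra* in CKO mice. *Junb* and *Fos*, which encode AP-1 subunits, are immediate early genes that many signals induce.

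Of the 15 targets listed for STAT2, which are IFN-stimulated genes, 0 rose with age and 2 fell in CTL mice, *Xaf1* and *Usp18*, with a list median of -0.35. In CKO mice 3 fell, *Xaf1*, *Rtp4* and *Zbp1*, with a median of -0.59. *Xaf1*, an inhibitor of the antiapoptotic protein XIAP, went from 98.4 ± 31.6 to 40.6 ± 12.8 CPM in CTL mice (adjusted p = 0.0081, edgeR) and from 135 ± 64.2 to 50.4 ± 4.74 CPM in CKO mice (0.00217). Over all genes 8.07% were called lower with age in CTL and 9.34% in CKO mice. In CTL mice, where *Stat2* itself was called higher, 3 of the 15 had a positive log2 fold change. With these 2 mismatched mice left out (KO 121 and WT 124), 2 of the 15 fell in CTL mice and 5 in CKO mice, against 9.92% and 10.4% of all genes.

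Between genotypes the same 15 genes leaned the other way: 14 had a positive log2 fold change in young CKO mice, with a median of 0.69, and 13 in aged CKO mice, with a median of 0.56, against a median over all genes close to 0. None passed. The aged values were 10 of 15 and a median of 0.14 without the mice labelled KO 121 and WT 124. The smallest p in young mice belonged to *Irf7*, a master factor of type I IFN production, at 48.8 ± 16.7 and 113 ± 40.8 CPM (log2 fold change 1.21, standard error 0.28, adjusted p = 0.123, edgeR). *Stat2* had log2 fold changes of -0.09 and -0.46 in the same comparisons, the latter -0.0958 without aged CTL mouse 99.

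**Figure D4:**
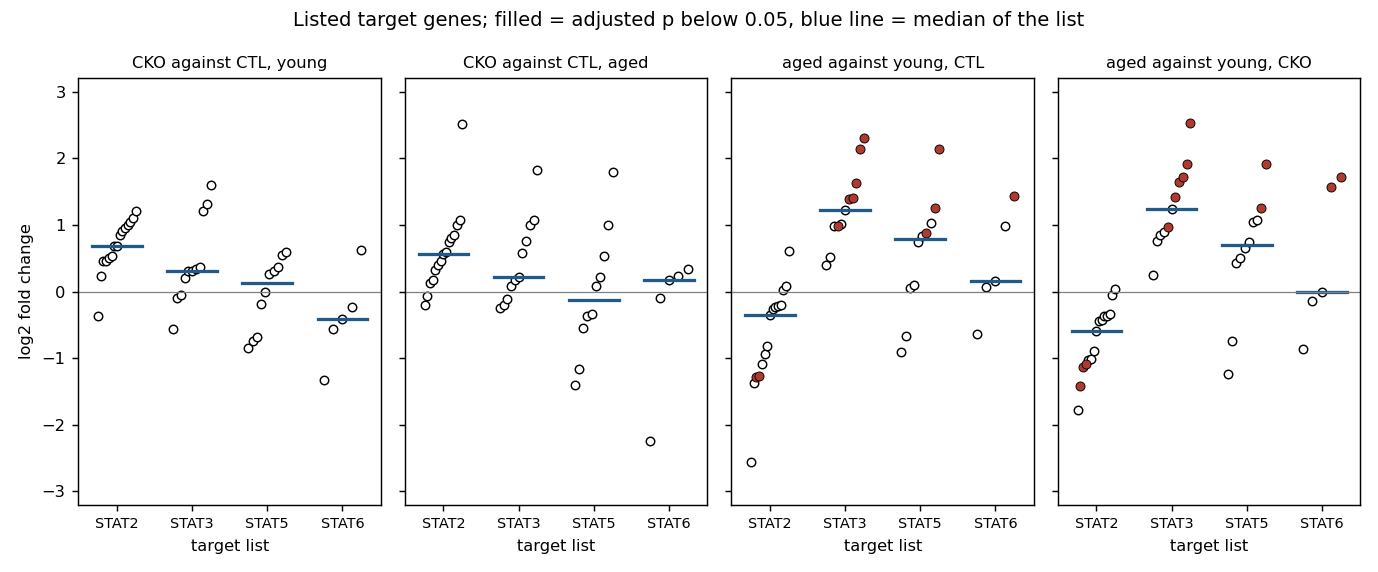
Log2 fold change (vertical axis, the same in each panel) of the genes listed as targets of STAT2, STAT3, STAT5 and STAT6 in 4 comparisons. Each point is a gene, filled where its adjusted p is below 0.05, and the blue line is the list's median. With age the STAT3 list has medians of 1.22 and 1.24 and the STAT2 list of -0.35 and -0.59, and no gene is filled in the panels of genotype.

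Of the 10 STAT5 targets tested, 3 rose with age in CTL mice and 2 in CKO mice, against 6.7% and 7.21% of all genes. The list's median log2 fold change was 0.79 and 0.69. *Bcl2l1*, which encodes the survival factor BCL-XL, and *Pim1* rose with age in both genotypes and *Ccnd2*, a cyclin of the G1 phase, in CTL mice. *Pim1* was 101 ± 119 and 107 ± 125 CPM in aged CTL and CKO mice and was not called in CKO mice without those labelled KO 121 and WT 124. *Bcl2l1* went from 33.9 ± 11.8 to 80.9 ± 36.0 CPM in CTL mice (adjusted p = 0.0119, edgeR) and from 49.2 ± 10.7 to 117 ± 39.7 CPM in CKO mice (0.00705). *Socs2* and *Cish*, feedback inhibitors that STAT5 induces, were not called with age over all mice (adjusted p of *Socs2* 0.432 in CTL and 0.103 in CKO mice, edgeR), but *Socs2* was called lower in both genotypes when the mice labelled KO 121 and WT 124 were left out. Between young genotypes *Socs2* was 90.3 ± 21.2 CPM in CTL and 50.3 ± 12.8 CPM in CKO mice (log2 fold change -0.84, adjusted p = 0.284, edgeR), and *Cish* was 86.5 ± 31.5 and 51.6 ± 15.2 CPM (-0.74, adjusted p = 0.515). Of the 5 STAT6 targets tested, 1 rose with age in CTL mice and 2 in CKO mice, against the same shares of all genes. Their median log2 fold change was 0.16 and -0.001, against 0.11 and 0.07 over all genes. *Gata3*, a factor of T helper 2 cells and of HSCs, rose from 23.4 ± 1.45 to 63.2 ± 28.8 CPM in CTL mice (adjusted p = 0.00865, edgeR) and from 19.8 ± 7.16 to 58.7 ± 16.4 CPM in CKO mice (0.00333). *Il4ra*, which is on this list too, also rose in CKO mice.

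Among the 24 receptors and kinases tested, 5 rose with age in CTL mice and 0 fell, against 6.7% and 8.07% of all genes. Among them were *Jak1*, *Csf2ra* (a chain of the GM-CSF receptor), and *Il6st* and *Il6ra* (the chains of the IL-6 receptor), of which *Il6ra* was no longer called without the mice labelled KO 121 and WT 124. In that fit the IFN receptor chain *Ifnar1* was called higher in both genotypes, and in CKO mice *Csf3r*, the G-CSF receptor, was called higher and *Il10rb*, a chain of the IL-10 receptor, lower. Over all genes of that fit 7.7% were called higher in CTL and 7.68% in CKO mice, and 9.92% and 10.4% lower. In the fit of all mice *Jak1* went from 268 ± 15.8 to 391 ± 53.9 CPM in CTL mice (adjusted p = 0.0159, edgeR), and *Csf2ra* had a log2 fold change of 0.99 (0.0248). In CKO mice 2 of the 24 rose and 1 fell, against 7.21% and 9.34% of all genes. *Kit*, the stem cell factor receptor, and *Il4ra*, the receptor chain through which STAT6 is activated, rose. *Il2rg*, the common chain of several interleukin receptors, fell from 585 ± 115 to 334 ± 85.1 CPM in CKO mice (adjusted p = 0.00546, edgeR). *Il4ra* was 7.68 ± 4.44 and 25.3 ± 5.54 CPM there (adjusted p = 0.0164, edgeR). *Il6ra* was 1.82 ± 1.64 CPM in young CTL and 11.9 ± 4.43 CPM in young CKO mice, which was not called (log2 fold change 2.74, adjusted p = 0.218, edgeR).

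Of the 19 inhibitors, 2 rose and 2 fell with age in CTL mice, where 6.7% of all genes rose and 8.07% fell, and 1 rose and 1 fell in CKO mice, where 7.21% rose and 9.34% fell. *Ptpn2*, a phosphatase of JAK1 and of STATs, fell with age in both genotypes, from 207 ± 27.9 to 121 ± 13.0 CPM in CTL mice (adjusted p = 0.00319, edgeR) and from 188 ± 23.5 to 99.7 ± 7.69 CPM in CKO mice (0.000373). *Ptpn1*, a phosphatase of JAK2, rose in CTL mice from 41.2 ± 4.74 to 99.3 ± 45.5 CPM (adjusted p = 0.00322, edgeR). *Socs3* is on this list too and rose in both, and *Usp18*, a brake on the IFN receptor, fell in CTL mice.

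Markers of other cells were followed in the same mice. The 6 megakaryocyte and platelet genes summed to between 513 and 872 CPM in young CTL and between 1005 and 3147 CPM in young CKO mice, and to between 390 and 612 CPM in aged CTL and between 568 and 2085 CPM in aged CKO mice. The sums of the genotypes did not overlap in young mice and overlapped in aged mice. In young mice the largest part was *Pf4*, at 297 to 638 CPM in CTL and 745 to 2765 CPM in CKO mice (adjusted p = 0.0488, edgeR). *Gp9* leaned the other way there (log2 fold change -0.45, not called). With age *Vwf* was called higher in CTL mice (adjusted p = 0.00477, edgeR). In CKO mice *Vwf*, *Itga2b* and *Gp9* were (0.00794, 0.00671 and 0.0303). A positive log2 fold change with age was seen in 2 of the 6 in CTL and 4 in CKO mice, not in *Pf4*. The 8 granulocyte and monocyte genes summed to between 744 and 905 CPM over the young mice and between 402 and 811 CPM over the aged mice, ranges that overlap. Most of this was *Lyz2*, at 716 to 888 CPM over the young mice and 377 to 746 CPM over the aged mice. *Elane*, *Ly6c2* and *Csf1r* had at most 3.11 CPM in any mouse. None of the megakaryocyte, platelet, granulocyte and monocyte markers was at 0 in a whole group, and their part in the values above was not tested.

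Within 100 kb of the 5 genes, 20 neighbouring genes were tested. Their median log2 fold change with age was 0.39 in CTL and 0.61 in CKO mice, against 0.11 and 0.07 over all genes, and 6.7% and 7.21% of all genes were called higher and 8.07% and 9.34% lower. With age 2 of them rose in CTL mice (*Cavin1* and *Kat2a*) and 3 in CKO mice (*Cavin1*, *Rab5c* and *Zfp385c*), and *Cnpy2* fell in both. All but *Cnpy2*, which lies beside *Stat2*, are neighbours of the chromosome 11 genes. The longest coding transcript of each member was also searched for GGACT, the DNA spelling of the commonest core of an m6A site. It occurred 5 times in *Stat2*, 3 times in *Stat3*, 3 times in *Stat5a*, 6 times in *Stat5b* and 4 times in *Stat6*, which is between 0.497 and 1.15 per kb, against a median of 1.05 per kb over 12452 genes. A match does not show that the site is methylated.

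For each member, the genes most like it were those with the highest Pearson correlation of log2 CPM over the 17 mice after the group means were removed, among 7910 genes with a mean of at least 20 CPM. These were *Usp5* (r = 0.90), *Nucb1* (0.86) and *Rnf123* (0.83) for *Stat2*, *Zfp523* (0.86) and *Afap1l1* (0.83) for *Stat3*, *Mknk2* (0.85), *Med23* (0.82) and *Safb* (0.82) for *Stat5a*, *Triobp* (0.87) and *H2-T23* (0.85) for *Stat5b*, and *Plcb4* (0.83), *Brms1l* (0.81) and *Brf1* (0.80) for *Stat6*. With the group means kept, r was 0.88 for *Stat2* with *Usp5*, 0.58 for *Stat3* with *Afap1l1* and 0.10 for *Stat5b* with *H2-T23*. The highest of so many correlations over 17 mice is a description, and the labels name no batch that mice may share. None of the 5 members was among the genes most like another.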

How the data were processed

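The deposited values are raw whole-number counts for each gene in each library, which the authors made by HISAT2 alignment to GRCm38 and read counting in Rsubread. The annotation and the use of strand are not given in the sources used here. The mouse was the replicate: the counts of its libraries were added, and library B of aged CTL mouse 99 was left out. The table holds 13108 rows, of which 1 has no counts.

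edgeR 4.0.16 in R 4.3.3 was used with filterByExpr (minimum count 10, minimum total 15), TMM and its quasi-likelihood test, and p-values were adjusted by Benjamini-Hochberg over all genes, with calls at 0.05. Genotypes were compared in young (8) and aged (9) mice fitted apart. Age and genotype by age were tested in a fit of all 17 mice. Standard errors come from the log2 fold change and the F statistic (its size over the root of F), and intervals are 95%. CPM come from TMM scaling over the 17 mice. The ratio of *Stat5a* to *Stat5b* was compared by an exact permutation test (scipy 1.17.1). The fit was tested on simulated data. Total counts per mouse set the depth, and reads carry no molecular identifiers.

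Alternatives were the likelihood ratio test, DESeq2 1.42.0, limma 3.58.1 (voom, mouse as a random effect), DESeq2's size factors, other filters, a Y-linked covariate, all mice in 1 fit, replicate blocks, and mice left out. For the age comparisons, leaving out the mice labelled KO 121 and WT 124, the Y-linked covariate and the difference less the median of all genes were added after the data were seen, as were the list counts and the *Stat5a* to *Stat5b* ratio without these mice and the levels per transcript length.

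The members and lists were chosen with earlier results of these data known. Named are all members, the listed genes that passed, and otherwise at most the 2 with the smallest p per list and direction. The neighbours, and listed genes beyond this, were named after their values were seen. Some genes under these rules are not reported here, although they remain in every count. Gene models are GENCODE M21, start-site windows are RefSeq GRCm38.p6.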

Additional observations from a re-analysis of the deposited data

Results flagged for a closer look

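In a group of 4 or 5 mice, a value was singled out when its gap to the nearest other mouse took more than Dixon's 95% share of the group's range, and chance does so in about 1 in 20 groups. Of the 28 sets of values examined, 5 had such a mouse. *Stat2* was 82.5 CPM in aged CTL mouse 99, the mouse with 1 library, against at most 40.8 CPM in the other aged CTL mice. The ratio of *Stat5a* to *Stat5b* was 1.58 in young CTL mouse 4, 2.38 in young CKO mouse 4 and 4.11 in aged CTL mouse 124. The sum of *Stat5a* and *Stat5b* was 125 CPM in young CTL mouse 2.

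The left-out library B of aged CTL mouse 99 held 39 counts of *Stat2*, 29 of *Stat3*, 12 of *Stat5a* and 28 of *Stat6*, above the 3 counts below which a gene was taken as not detected, and 0 of *Stat5b*. Its partner A held 200, 800, 288 and 335 counts of the first 4 and 182 of *Stat5b*. No cause was tested for any of these values.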

How the results depend on the processing

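No alternative called a member between genotypes or for genotype by age, over 95, 105 and 105 fits of a member in young mice, aged mice and genotype by age. The direction turned, each time without a call, for *Stat2* in young mice (-0.24 to 0.0863 when 1 mouse was left out, above 0 without young CKO mouse 3), for *Stat3* in aged mice (0.0004 by the likelihood ratio test over libraries, 0.0161 with the library letter as a block, and -0.304 to 0.127 when 1 mouse was left out, above 0 without aged CTL mouse 99), and for *Stat5a* in genotype by age (-0.0512 to 0.3463, below 0 without young CTL mouse 2, young CKO mouse 2, aged CTL mouse 65 or aged CKO mouse 121). Of the 110 fits for age in each genotype none turned a direction, 8 in CTL and 3 in CKO mice lost a call by leaving out 1 mouse and 1 added one, all named with the genes.

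Over all genes, the 20 calls in young mice became 67 and 90 by the likelihood ratio test over mice and over libraries, 88 by DESeq2, 9 with the Y-linked covariate and 1 with both ages in 1 fit. The 0 calls in aged mice became 76, 420 and 112 by the first 3 of these and 5 with both ages in 1 fit, and 40 without the mice labelled KO 121 and WT 124. Genotype by age gave 4 calls by the likelihood ratio test and 15 without these mice. Leaving out 1 mouse gave from 0 to 18 calls in young mice, 0 to 16 in aged mice (16 without the mouse labelled KO 121), 0 to 2 for genotype by age, 896 to 2048 for age in CTL mice and 1183 to 2655 for age in CKO mice. The numbers of young mice are shared between genotypes but pair no animals (correlations of deviations from -0.04 to 0.05), and with the number as a replicate block 14 genes were called. With the library letter as a replicate block over libraries, 50 genes were called in young and 40 in aged mice.

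The log2 ratio of *Stat5a* to *Stat5b* differed between genotypes by -0.08 in young mice, and by -0.390 to 0.0745 when 1 mouse was left out, above 0 without young CTL mouse 4 and young CKO mice 3 and 2. In aged mice it was -0.56, and -0.80 to -0.16 when 1 mouse was left out, with the lowest value, without aged CTL mouse 65, at p = 0.0357 (exact permutation test) and the highest without aged CTL mouse 124. *Stat2* had as few as 15 counts in a library, and counts of the 2 libraries of a mouse differed by more than counting error (chi-square over its degrees of freedom 10.2 or more).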
